A study of Drosophila melanogaster with 6 samples.

Results

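Chromosome 4 is the smallest autosome of Drosophila melanogaster, and 47 of its genes were described here in SL2 cells after depletion of the nucleosome remodelling ATPase Iswi. The members were selected by their symbols, as genes of chromosome 4, and the list was drawn up with the measured differences between ISWI and GST dsRNA already in view. That comparison was thus part of how the members were chosen, and its values are given for them as a description, with no p-value for single members. Of the 47 genes, 40 had at least 1 probe set that the platform annotation assigns to that symbol alone, which made 49 probe sets of 18952 on the array. Of these 40 genes, 30 were measured above a log2 value of 4 and entered the fit, out of 5999 such genes of all chromosomes.

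SL2 is a cell line established from Drosophila embryos that resembles blood cells. Cultures received 10 micrograms of dsRNA for RNA interference, directed either at ISWI (3 replicate cultures) or at GST, a control target (3 replicate cultures). The cells took up the dsRNA for 1 hour without serum and were harvested on day 7, and total RNA of each culture went on 1 array. No untreated cells were measured here, the stretch of Iswi that the dsRNA covers is not given, and both groups are treatments of a single cell line.

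Chromosome 4 carries most of its genes inside chromatin that has marks of heterochromatin, such as the protein HP1 and methylated histone H3, and yet many of these genes are transcribed. A protein that binds this chromosome in particular is encoded by Pof, and it acts beside HP1 on the output of the genes. Iswi encodes the motor subunit of several complexes that slide and space nucleosomes. The chromosome holds regulators of eye, neural and segment development as well as genes for general cell functions.

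The depletion was checked on the target transcript. Iswi had log2 values of 7.66, 7.74 and 7.16 in the ISWI cultures, against 10.53, 10.54 and 10.47 in the GST cultures, a log2 difference of -2.99 (SE 0.14, limma adjusted p = 7.61e-06). All 12 plasmatocyte markers examined were above 4 on at least 3 arrays, and 3 were higher and 3 lower after ISWI dsRNA by limma (25% each). Over all tested genes 23.4% were higher and 17.6% lower. Of 4 germline markers 3 were too dim to be tested and the other one had no probe set of its name. Of 6 markers of crystal cells and lamellocytes, the other blood cell types, 5 were tested and 3 were higher (60%). These were PPO1 at a log2 difference of 1.54, PPO2 at 0.76 and PPO3 at 0.66, and lz and mys did not pass. Of 4 fat body markers apolpp alone was tested, and it did not pass. The part of these markers in the values of the members was not tested. The eIF-4a control probe sets, whose 3' minus 5' difference reflects RNA integrity, gave 1.91, 2.26 and 1.86 on the ISWI arrays, against 1.85, 1.75 and 1.69 on the GST arrays. Every ISWI array thus lay above every GST array, with ISWI replicate 2 highest, and the part of this difference in the values of the members was not tested. Counts without ISWI replicate 2 are given beside the counts of members.

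Of the 30 measured members, 14 were lower and 4 were higher after ISWI dsRNA by limma at an adjusted p of 0.05 over all 7390 tested probe sets, and 12 did not pass. Among all 5999 tested genes 17.6% were lower and 23.4% were higher by the same rule. With a difference of at least 1.5-fold as well, 9 members were lower and 3 were higher, where the shares over all genes were 4.85% and 7.22%. The ISWI cultures lay wholly below the GST cultures for 14 members and wholly above for 4. Over all 5999 tested genes such separation was common, with 1424 below and 1872 above. As the members were chosen with these differences in view, nothing is read from the counts. The median log2 difference over the 30 members was -0.13 and that over all tested genes was 0.03. The median of the members was -0.20 without ISWI replicate 1, and -0.0179 without the filter on dim probe sets. Without ISWI replicate 2 the counts were 12 lower and 5 higher, where 17.5% of all 5947 genes then tested were lower and 1194 were higher. The 30 members lay above 4 on all 6 arrays, so none was measured through 1 group alone. An array of bulk RNA cannot tell fewer cells that use a gene from less of its RNA per cell.

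**Figure D1:**
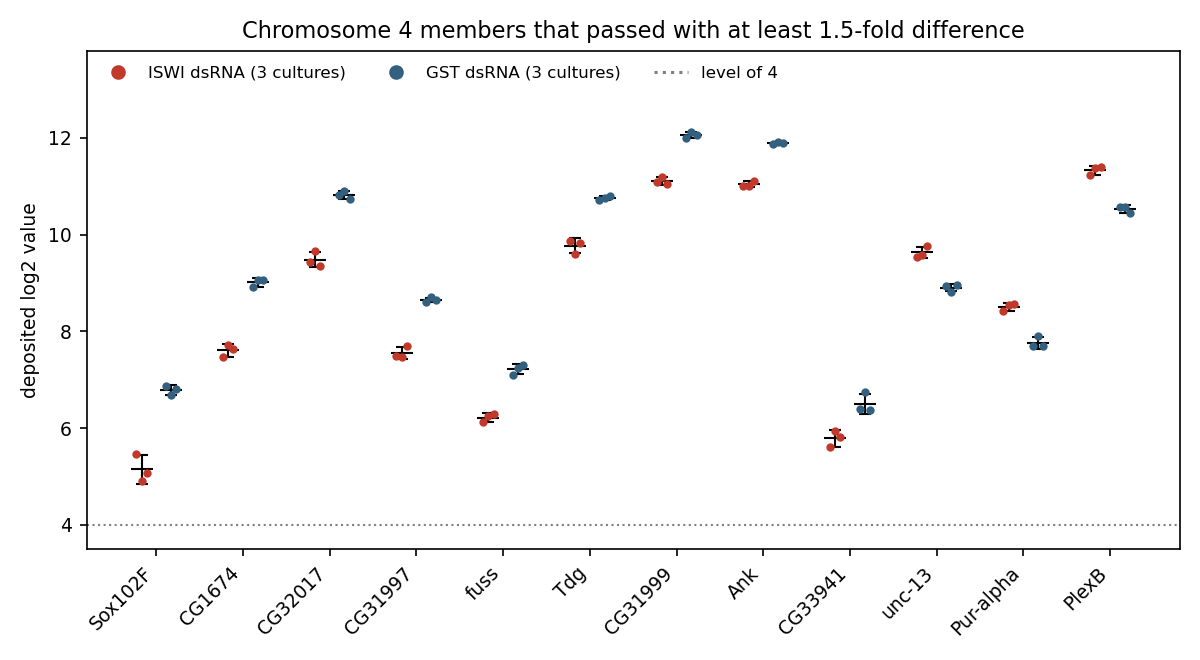
Deposited log2 values (vertical axis) of the 12 members that passed with at least a 1.5-fold difference, with ISWI cultures in red left of GST cultures in blue, a bar for the mean and whiskers for the SD over 3 cultures. The groups do not overlap for these genes, which were picked by their difference. Over all 5999 tested genes, ISWI cultures lie wholly below for 1424 and wholly above for 1872. Sox102F stands at 5.15 in ISWI cultures and 6.79 in GST cultures.

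In the group of transcription factors and corepressors, Sox102F and fuss fell. Sox102F, a transcription factor gene of the SoxD family, had log2 values of 5.47, 4.90 and 5.07 in ISWI cultures, against 6.87, 6.68 and 6.81 in GST cultures. The ISWI cultures thus all lay below the GST cultures, and at 32.1% of the GST level this was the largest gene-level difference among the 30 measured members (log2 difference -1.64, SE 0.16). The gene fuss, of the Ski and Sno family of transcriptional corepressors, had 6.13, 6.24 and 6.29 in ISWI cultures and 7.11, 7.24 and 7.30 in GST cultures, a log2 difference of -0.997 (SE 0.10). The groups did not overlap for fuss either, and the spread within each was small, with an SD of 0.08 in ISWI cultures and 0.10 in GST cultures.

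The other 2 measured regulators did not pass. For ci, the transcription factor gene of Hedgehog signalling, the ISWI cultures gave 5.90, 6.49 and 6.41 and the GST cultures 6.30, 6.32 and 6.18, so that the groups overlapped and the log2 difference was 0.00 (SE 0.16). Mitf, a helix-loop-helix gene of lysosome and metabolic control, averaged 4.92 ± 0.30 in ISWI cultures and 4.78 ± 0.03 in GST cultures (SD, n = 3 each), close to the level of 4. The regulators of eye and nervous system development ey, toy, onecut, zfh2 and sv, as well as NfI, were at or below 4 throughout.

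The 6 measured genes known only by number were all lower, where 17.6% of all tested genes were, and the members were chosen with these values in view. CG1674 had 7.46, 7.72 and 7.63 in ISWI cultures, against 8.91, 9.06 and 9.06 in GST cultures, a log2 difference of -1.41 (SE 0.09). CG32017 had 9.44, 9.65 and 9.36 in ISWI cultures and 10.82, 10.90 and 10.74 in GST cultures, a difference of -1.34 (SE 0.09). For both genes every ISWI culture lay more than 1 log2 unit under every GST culture. CG31997 followed with 7.49, 7.46 and 7.69 in ISWI cultures and 8.61, 8.70 and 8.64 in GST cultures, at -1.10 (SE 0.08). CG31999 stood at 11.08, 11.19 and 11.05 in ISWI cultures, against 12.00, 12.12 and 12.06 in GST cultures, at -0.95 (SE 0.06). These 2 genes differed by about 1 log2 unit at quite different signal levels, and neither had overlapping groups.

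CG33941 was dimmer, with 5.61, 5.94 and 5.81 in ISWI cultures and 6.39, 6.75 and 6.37 in GST cultures, a difference of -0.72 (SE 0.14). CG11360 fell less, at -0.55 (SE 0.16), with 6.85, 6.44 and 6.59 in ISWI cultures and 6.88, 7.28 and 7.39 in GST cultures. The highest ISWI culture and the lowest GST culture of CG11360 nearly met, and its call was lost without ISWI replicate 2 or 3 or GST replicate 2 or 3, with log2 differences of -0.46, -0.54, -0.51 and -0.45. The other CG11360 probe set gave -0.74 (SE 0.16) and passed.

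The 3 cytoskeletal and cuticle genes Ank, bt and yellow-h were lower, a call given to 17.6% of all tested genes, and the call of yellow-h depended on single arrays. Ank, which encodes ankyrin, a protein that links membrane proteins to the spectrin cytoskeleton, had 11.01, 11.01 and 11.11 in ISWI cultures, against 11.87, 11.91 and 11.89 in GST cultures. Replicates of Ank agreed within an SD of 0.06 in ISWI cultures and 0.02 in GST cultures, and the groups stood 0.85 log2 units apart (log2 difference -0.85, SE 0.05). The titin-like muscle protein gene bt (bent, or projectin) averaged 9.49 ± 0.06 in ISWI cultures and 9.99 ± 0.06 in GST cultures (SD, n = 3 each), a difference of -0.51. Of the other muscle markers examined, Act88F, up and Mlc2 were at or below 4, sls did not pass (0.76, SE 0.36), and Mhc had no probe set of its name. Whether muscle-type transcription had a part in the bt value was not tested. The gene yellow-h, of the yellow family, fell by 0.54 (SE 0.15), with 7.87, 7.97 and 8.43 in ISWI cultures and 8.65, 8.75 and 8.49 in GST cultures. ISWI replicate 3 nearly reached GST replicate 3 here. The yellow-h call was lost without ISWI replicate 1 or 2 or GST replicate 1 or 2, at log2 differences of -0.43, -0.48, -0.53 and -0.48.

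In the housekeeping and DNA repair group Tdg fell, and the probe sets that represent the other 2 genes did not pass. Tdg encodes thymine DNA glycosylase, a base excision repair enzyme, and had 9.88, 9.59 and 9.84 in ISWI cultures, against 10.71, 10.76 and 10.79 in GST cultures. All ISWI cultures lay below the GST cultures, at 50.5% of the GST level (log2 difference -0.98, SE 0.08). This value comes from the probe set of Tdg alone, and other probe sets that the annotation shares between Tdg and an overlapping long non-coding RNA were not used. Rad23, of nucleotide excision repair and proteasome delivery, differed by 0.05 (SE 0.07), and the groups overlapped. ATPsynbeta, the beta subunit of mitochondrial ATP synthase, depended on the probe set: the one with the higher signal gave 0.06 (SE 0.10) and did not pass, and the other gave 0.47 (SE 0.12) and passed. Without ISWI replicate 2, the array with the raised eIF-4a difference, the first of these also passed, at 0.17.

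Among kinases and adaptors, Crk fell and Dyrk3 rose. Crk, an SH2 and SH3 domain adaptor of receptor signalling, averaged 10.72 ± 0.09 in ISWI cultures and 11.16 ± 0.03 in GST cultures (SD, n = 3 each), at -0.44. The kinase gene Dyrk3 had 9.19, 9.32 and 9.25 in ISWI cultures, against 8.87, 8.93 and 8.73 in GST cultures, at 0.41 (SE 0.08). For both genes the groups did not overlap. Asator, a gene of the tau-tubulin kinase family, averaged 6.21 ± 0.12 in ISWI cultures and 6.08 ± 0.10 in GST cultures (SD, n = 3 each) and did not pass.

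Receptors and ligands went both ways. PlexB, a plexin gene whose product is a semaphorin receptor in axon guidance, had 11.22, 11.37 and 11.40 in ISWI cultures, against 10.57, 10.58 and 10.44 in GST cultures. All ISWI cultures were above the GST cultures, by 1.74-fold on average (log2 difference 0.80, SE 0.07). The other 2 tested PlexB probe sets passed too, at 0.68 (SE 0.07) and 1.65 (SE 0.41). The third of them is the dimmest, with GST values of 5.22, 5.33 and 3.81, and its size is the least certain. The gene mav (maverick), which encodes a TGF-beta ligand, fell by 0.39, with 9.30, 9.26 and 9.35 in ISWI cultures and 9.68, 9.69 and 9.69 in GST cultures. The related ligand gene myo (myoglianin) gave -0.13 (SE 0.13), the receptor tyrosine kinase gene Eph 0.04 (SE 0.09) and its ligand gene Ephrin 0.15 (SE 0.07), and these 3 did not pass. The glutamate receptor gene mGluR was at or below 4.

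**Figure D2:**
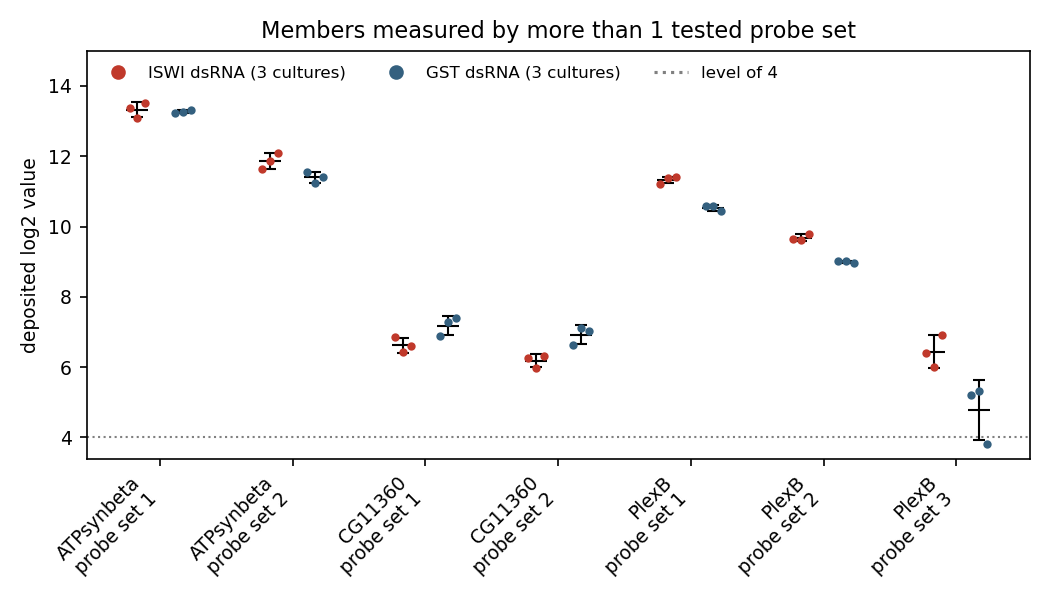
Deposited log2 values (vertical axis) of the members with more than 1 tested probe set, numbered from the brightest, with ISWI cultures in red left of GST cultures in blue, means and SD over 3 cultures. PlexB and CG11360 keep their direction on each tested probe set, and ATPsynbeta is 0.06 on the first and 0.47 on the second.

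Of the genes of exocytosis and transport, unc-13 rose. The gene unc-13 encodes a protein that primes synaptic vesicles for release, and had 9.55, 9.58 and 9.77 in ISWI cultures, against 8.93, 8.82 and 8.95 in GST cultures. The groups did not overlap, and the ISWI level was 1.66-fold the GST level (log2 difference 0.73, SE 0.08). Of the 6 neuron markers, nSyb and futsch were at or below 4 and Syt1 had no probe set of its name. Snap25 was at or below 4 on all GST arrays and at 5.08, 5.65 and 5.48 on the ISWI arrays, so it was tested through the ISWI arrays alone. It was higher by limma (2.06, SE 0.18), brp was lower (-0.29, SE 0.10) and elav did not pass (-0.39, SE 0.16). The part of these markers in the unc-13 value was not tested. Slip1, for a protein that binds the Slowpoke potassium channel, gave 0.00 (SE 0.06), and the zinc transporter gene Zip102B gave -0.09 (SE 0.10). The genes Syt7 (a synaptotagmin) and Gat (a GABA transporter) were at or below 4.

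Of the cofactors and RNA regulators, Pur-alpha rose and 2 others did not pass. Pur-alpha, which encodes a protein that binds single-stranded DNA and RNA, had 8.42, 8.54 and 8.56 in ISWI cultures, against 7.69, 7.90 and 7.69 in GST cultures. Every ISWI culture was above every GST culture, on average 1.68-fold (log2 difference 0.75, SE 0.09). The gene gw, which encodes the GW182 protein of microRNA silencing, averaged 11.64 ± 0.13 in ISWI cultures and 11.77 ± 0.05 in GST cultures (SD, n = 3 each), at -0.13. Gyf, a GYF domain gene of translational control, gave -0.13 (SE 0.10). Hcf, for a host cell factor that joins histone-modifying complexes, was at or below 4.

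The remaining members complete the account. The 10 members at or below the level of 4 (NfI, ey, toy, onecut, sv, zfh2, Hcf, mGluR, Syt7 and Gat) had 12 probe sets with values between 2.17 and 3.02 on all arrays. No difference was computed for them. The measured members Ank, CG1674 and PlexB each also had a probe set too dim to be tested, with means over all arrays of 3.08, 2.95 and 2.36. For 7 members (pan, pho, lgs, PlexA, CaMKII, RpS3A and Caps) no probe set carried the symbol alone, and they were not analysed here. The gene table gives Caps as an older name of Cadps, which was too dim to be tested.

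The genes of chromosome 4 outside the list were taken from the genome annotation, in which 80 protein-coding genes lie on the chromosome and 42 had a tested probe set. Of these, 12 were not among the members. Of these 12, 2 were lower by limma (16.7%), 0 were higher and the other 10 did not pass. Over all tested genes the lower and higher shares were 17.6% and 23.4%. The median log2 difference of the 12 genes was -0.07. CG31998 averaged 8.78 ± 0.19 in ISWI cultures and 9.20 ± 0.06 in GST cultures (SD, n = 3 each), at -0.41, and CG11076 averaged 10.24 ± 0.09 in ISWI cultures and 10.65 ± 0.03 in GST cultures, also at -0.41. The CG31998 call was lost without GST replicate 3, at -0.38. With members and others together, 16 of 42 genes were lower (38.1%) and 4 were higher (9.52%), with a median of -0.13. On the other chromosome arms the lower share ran from 16.1% on 3R to 19.9% on 2L, the higher share from 21.0% on X to 26.2% on 2L, and the median log2 difference from 0.02 on X to 0.04 on 3L. The difference between chromosome 4 and the other arms was not tested, and most of its tested genes, 30 of 42, are members chosen with their values in view.

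**Figure D3:**
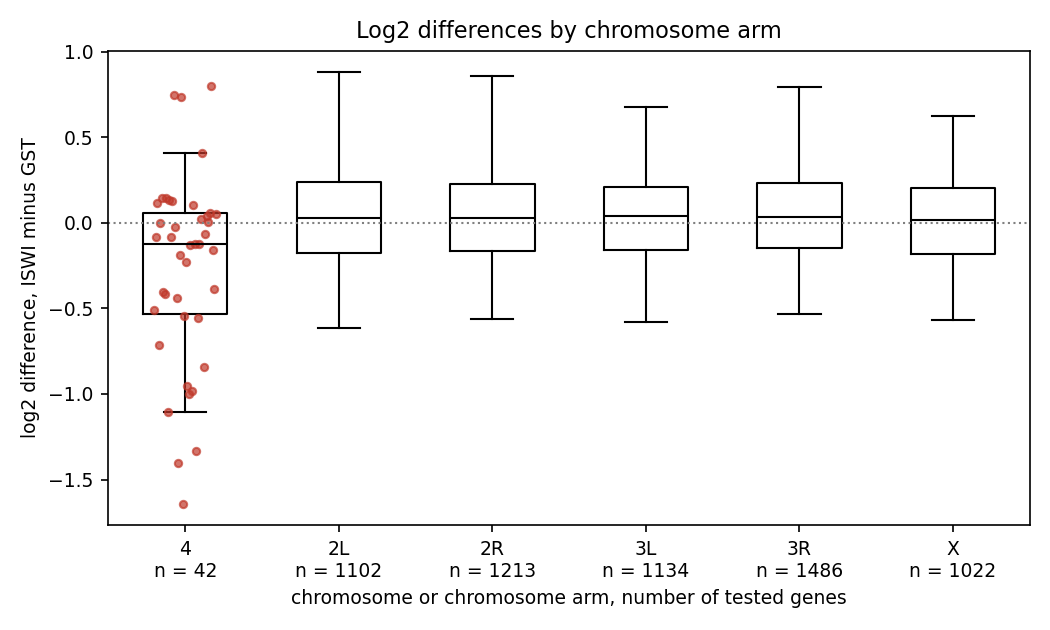
Log2 differences between ISWI and GST cultures (vertical axis) of all tested genes by chromosome or chromosome arm, with the median, the quartiles as a box, whiskers from percentile 5 to percentile 95, and each chromosome 4 gene as a red point. The median of chromosome 4 lies at -0.13 and those of the other arms between 0.02 and 0.04.

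The members were also placed in their order along the chromosome. The lower genes included a stretch of 7 tested genes in a row (Ank, CG31997, CG31998, Crk, CG31999, yellow-h and CG1674), 6 of which are members. From Ank to CG1674 the annotation holds 12 protein-coding genes, and the other 5 either were too dim to be tested or had no probe set of that 1 symbol. The log2 differences within the stretch ran from -0.41 for CG31998 to -1.41 for CG1674. It was noticed after the values were seen. The yellow-h call was lost without 4 of the 6 arrays in turn and that of CG31998 without 1, as given above, so of the 6 ways to leave out 1 array only that without ISWI replicate 3 left the row of calls unbroken.

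Outside this stretch 9 of 35 tested genes were lower (25.7%) and 4 were higher. Over all tested genes 17.6% were lower and 23.4% were higher. The stretch was drawn from these same calls, and the 35 genes include members chosen with their values in view. Of 41 pairs of tested genes next to each other in this order, 6 were both lower and 0 were both higher. The 6 pairs are the stretch from Ank to CG1674 counted again, since 7 genes in a row make 6 pairs. Another 34 pairs held at most 1 called gene, and 1 pair was called in opposite directions. That pair was Tdg and Pur-alpha, which are direct neighbours in the annotation, at -0.98 and 0.75. The 4 higher members PlexB, Pur-alpha, unc-13 and Dyrk3 did not lie next to each other. Sox102F, fuss and CG32017 likewise had tested neighbours that did not pass.

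**Figure D4:**
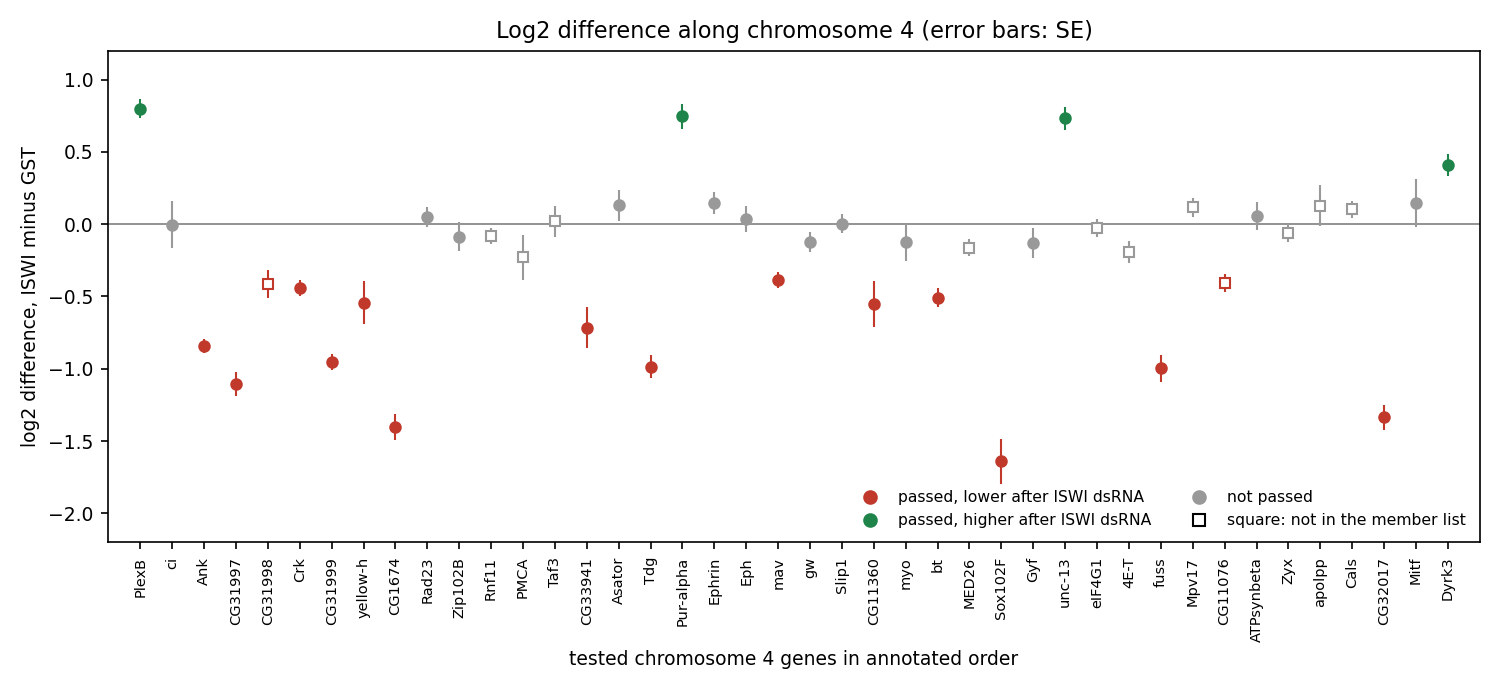
Log2 difference between ISWI and GST cultures (vertical axis, error bars for the SE) of the 42 tested chromosome 4 genes in annotated order (horizontal axis), with circles for members and squares for other genes. The genes from Ank to CG1674 lie below 0 in a row, and the 4 higher genes are spread along the order.

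Among genes for heterochromatin proteins and for regulators of chromosome 4 that lie elsewhere in the genome, Pof was lower. Pof had 7.57, 7.89 and 7.82 in ISWI cultures, against 8.18, 8.29 and 8.12 in GST cultures, a log2 difference of -0.44 (SE 0.10, limma adjusted p = 0.0109). The ISWI cultures were all below the GST cultures, but the call was lost without GST replicate 2, at -0.39. Of 32 gene names in this list 20 were tested, of which 3 were higher and 4 lower, 15% and 20%, set beside the shares over all genes (23.4% and 17.6%). This list too was chosen with earlier results of these data known. Its counts and the p-values of its genes are therefore a description, and nothing is read from them. The higher count was 1 without ISWI replicate 2, without any 1 of the GST arrays or with the replicate block, and the lower count was 2 without GST replicate 2. The smallest adjusted p belonged to del, which encodes a heterochromatin-associated protein of germline piRNA production, at -0.67 (SE 0.08, limma adjusted p = 0.000723). HP4, for a partner protein of HP1, rose by 0.31 (SE 0.04, limma adjusted p = 0.00105), and HP1b, a paralog of HP1, fell by 0.26 (SE 0.06, limma adjusted p = 0.00797). The gene that encodes HP1 itself gave 0.10 (SE 0.04) and did not pass.

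The median SD over members was 0.12 in ISWI cultures and 0.08 in GST cultures, against 0.11 and 0.07 over all tested genes. The median difference of the members from their GST mean was -0.29, -0.18 and -0.24 on the 3 ISWI arrays, and between -0.02 and 0.05 on the GST arrays. The median over all tested genes, taken likewise, was 0.00463, 0.0457 and 0.0326 on the ISWI arrays. As the members were chosen with these differences in view, nothing is read from their values per array.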

How the data were processed

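RNA from 6 cultures was measured on 1 array each and grouped by the dsRNA in the sample titles. The deposited values are log2 values per probe set, made with GCRMA per the submitters' processing notes. GCRMA in general corrects background, normalizes by quantiles and summarises probes, so a global shift between treatments is removed and undetected transcripts sit near a constant low value. Its version was not given in the sources used here. Of 18952 probe sets 183 controls were left out, and 7390 with a log2 value above 4 on at least 3 arrays were tested. Gene names came from the platform annotation (13647 probe sets with 1 symbol, 402 with several, not named) and a gene table of genome Release 6, matched by gene ID and otherwise by symbol (13550). The files name no genome build, so that table gave only names, chromosomes and gene order.

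The groups were compared with limma (version 3.58.1, run in R 4.3.3), by a linear model per probe set whose variances were moderated with a trend on signal. P-values are two-sided and were adjusted by the Benjamini-Hochberg method across the 7390 probe sets. Where a gene had several tested probe sets, the brightest one on average represented it. The code was tested on simulated data. The members and lists were chosen with earlier results of these data known. By rule all 6 values are given for members that passed with at least 1.5-fold, and the log2 difference for the other tested members. The array values of CG11360, yellow-h, mav, Dyrk3 and ci were added after they were seen. Outside the list the passing chromosome 4 genes with the largest differences, Pof and up to 4 passing regulators by adjusted p are named. Alternatives were other filters, scalings, variance moderation, array weights, a replicate block, averaged probe sets, other thresholds and leaving out each array. The series design calls the replicates biological. The number of arrays limits the precision.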

Additional observations from a re-analysis of the deposited data

How the results depend on the processing

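The 14 lower and 4 higher members kept their direction under all alternatives, and the calls lost were those of CG11360 and yellow-h, apart from the stricter fold. Requiring 1.5-fold left 9 lower members and 9 lower genes of the chromosome, with 4.85% of all genes lower. An adjusted p of 0.01 left 12 lower and 4 higher members, where 608 of all 5999 genes were lower (10.1%) and 846 were higher. With the replicate block 13 members were lower (CG11360 was lost) and 4 were higher, with 16.8% of all genes lower and 1297 higher. Averaged probe sets gave 14 lower and 5 higher members (ATPsynbeta was gained) and 17 lower chromosome 4 genes. Of all genes 18.1% were then lower and 1425 were higher. Same-numbered cultures had correlations of their deviations of -0.18, 0.12 and 0.06, and differently numbered cultures had -0.24 to 0.14. With 3 arrays per group these values cannot decide whether the numbers pair the samples. Leaving out each array gave 12 to 13 lower and 4 to 5 higher members. Over all tested genes 11.9% to 17.5% were then lower, and 1014 to 1415 genes were higher. The median log2 differences were then -0.20 to -0.11 for members and -0.14 to -0.0746 for chromosome 4 genes. Without a filter these medians were -0.0179 and -0.0131, over 40 members and 65 chromosome 4 genes, the dim ones included. With centred arrays the chromosome 4 median was -0.16, 18 chromosome 4 genes were lower and 4 higher, and 5 regulators were lower and 2 higher. Centring and quantile normalization applied again moved the share of higher genes among all calls from 57.1% to 51.5% and 52.1%, with the same 14 and 4 members. Of all tested genes 19.9% were lower in both settings, and 1270 and 1304 were higher. The regulators had 1 higher with the replicate block, 1 to 2 higher and 2 to 4 lower when arrays were left out, 1 higher and 2 lower at 0.01, and 0 higher and 1 lower with 1.5-fold. The cause of these changes was not tested.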
